A study of Mus musculus with 26 samples.

Results

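The genes examined encode the proteasome of brown adipose tissue (BAT) and the factors that control its supply. They are the 53 protein-coding mouse genes whose symbols run from Psma to Psmg followed by a number, together with Pomp, Nfe2l1 and Ddi2, out of 50686 entries in the count table. By role they comprised 7 core alpha subunits, 7 core beta subunits, 9 subunits of the base, 8 of the lid, 3 of the immunoproteasome, 6 activators or inhibitors, 8 assembly chaperones, the regulators Nfe2l1 and Ddi2, and 2 core subunits of other tissues. The symbol rule also took in Psmc3ip, whose protein acts in meiotic recombination and is not a proteasome subunit. RNA-seq was performed on BAT, labelled as supraclavicular, from 26 male C57BL/6J mice aged 12 to 16 weeks, each from litters of Mllt4 flox/flox mice crossed with an Adiponectin-Cre line. The adiponectin promoter drives Cre in white as well as brown adipocytes, and other cell types of the depot keep the gene. Mice labelled Afadin KO (fat-specific, FAKO in the study) and control littermates labelled WT all spent about 2 weeks at thermoneutrality, given as 29 °C in the methods and 30 °C in the labels. Of these, 7 control mice (WT30) and 7 mice labelled FAKO (KO30) were taken at thermoneutrality, and 5 control mice (WT5) and 7 mice labelled FAKO (KO5) after a further 6 h at 5 °C.

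The proteasome degrades proteins tagged with ubiquitin. Its barrel-shaped core holds the proteolytic sites of the beta subunits between rings of alpha subunits, and a cap made of a base with ATPases and a lid with a deubiquitinase binds, unfolds and feeds in the substrates. Interferon exchanges the catalytic beta subunits for those of the immunoproteasome and induces the activator made of Psme1 and Psme2, which together favour antigen processing. NFE2L1 is a transcription factor held at the endoplasmic reticulum, where it is retrotranslocated, deglycosylated and cut by the protease DDI2 before it enters the nucleus and activates genes of proteasome subunits. In brown fat NFE2L1 is known to sustain proteasome activity during adaptation to cold.

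Because NFE2L1 binds antioxidant response elements as a partner of small MAF proteins, the promoters of the proteasome genes were searched for the core of that element, TGACNNNGC, on both strands. RefSeq promoters on GRCm38.p6, each 250 bases before to 50 after a transcription start, were at hand for 45 of the 53 genes. Psmb1, Psmb2, Psmb7, Psmc3, Psmd3, Psmd7, Psma8 and Psmg2 had none. Of the 31 constitutive subunits of core, base and lid, 25 had a promoter, and 4 of them held the motif. The stretches below show it in these 4 promoters, with the motif in capitals on whichever strand it was found. They are read 5′ to 3′ in the direction of the gene.
Psmb5 (chr14:54617996-54618082, minus strand): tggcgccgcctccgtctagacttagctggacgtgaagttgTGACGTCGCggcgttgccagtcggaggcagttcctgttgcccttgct
Psmb6 (chr11:70525308-70525356, plus strand): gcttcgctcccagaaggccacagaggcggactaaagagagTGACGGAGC
Psmc6 (chr14:45329574-45329645, plus strand): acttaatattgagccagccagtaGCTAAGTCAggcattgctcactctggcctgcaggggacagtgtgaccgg
Psmd12 (chr11:107479278-107479329, plus strand): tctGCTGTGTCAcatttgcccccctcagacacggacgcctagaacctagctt

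In Psmb6, the caspase-like catalytic subunit, the motif began 9 bases before the start, and in Psmb5, the chymotrypsin-like subunit, 47 bases before it. In Psmd12 of the lid and in the ATPase Psmc6 it began 247 and 227 bases before the start, on the opposite strand. The share of constitutive subunits with the motif was 16.0%, against 14.0% of all 27025 genes in the promoter table. The looser TGANNNNGC, which covers every match of TGACNNNGC, was present for 14 of the 25 genes (56.0%) and for 45.0% of all genes. CCAAT, a box common in promoters, was present for 10 of the 25 (40.0%) and for 41.1% of all genes. Both shares describe these windows only. Psmd9 and Psme4 also held TGACNNNGC, and the immunoproteasome genes and Nfe2l1 did not hold it within theirs.

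A different layout was seen for the immunoproteasome gene Psmb9. Psmb9 and Tap1, a transporter that carries proteasome products into the endoplasmic reticulum, start head to head on chromosome 17, and 225 bases separate their RefSeq starts. That stretch is shown on the strand of Tap1 because both genes changed with cold. Its capitals mark the single CCAAT box.
Psmb9 and Tap1 (chr17:34187331-34187555, plus strand): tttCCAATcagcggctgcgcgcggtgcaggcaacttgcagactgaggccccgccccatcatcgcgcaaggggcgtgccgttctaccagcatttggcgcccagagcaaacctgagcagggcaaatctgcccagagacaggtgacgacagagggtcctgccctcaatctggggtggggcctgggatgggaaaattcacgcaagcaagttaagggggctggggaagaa

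The libraries held 12705969 to 25732258 counts each, and levels are given as CPM, which are counts scaled to a common library total with TMM factors. The 7 brown adipocyte markers (Ucp1, Cidea, Adipoq, Fabp4, Plin1, Ppargc1a and Dio2) had no library without counts. They summed to 6380 to 8132 CPM at thermoneutrality and to 27662 to 35295 CPM in the cold. The rise was not uniform, since their log2 fold changes with cold ran from -0.77 to 7.00 in control mice and from -0.50 to 6.63 in mice labelled FAKO. The skeletal muscle markers summed to between 0.815 and 7039 CPM in single mice of all groups. The control mouse WT30-7 stood apart with 14.3% of its counts on mitochondrial genes, against a group median of 37.2%, and the numbers of proteasome genes that rose or fell in control mice were the same without it. The median mitochondrial share was 28.3% in KO30, 27.6% in WT5 and 28.0% in KO5, where single mice ran from 19.2% to 39.3%. Afdn, the targeted gene, had 151 to 214 CPM in control mice and 154 to 231 CPM in mice labelled FAKO at thermoneutrality, and 67.9 to 79.2 CPM and 53.3 to 65.3 CPM in the cold. Since the ranges overlapped at thermoneutrality, the groups are named by their labels.

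The comparison addressed first was how the proteasome genes respond to cold in control mice. After 6 h at 5 °C the transcripts of nearly all constitutive proteasome subunits rose, while those of the immunoproteasome and its interferon-induced activator fell. These data hold RNA only, and proteasome protein and activity were not measured in them. Among the 51 genes with enough counts to be tested, 37 rose and 7 fell in edgeR's quasi-likelihood test at a Benjamini-Hochberg adjusted p below 0.05. Over all 17286 genes tested, 31.6% rose and 33.4% fell. In mice labelled FAKO, 39 rose and 6 fell, against 33.7% and 34.9% of all genes. With library size alone as the scaling, in place of TMM, these counts were 33 and 7 in control mice and 32 and 10 in mice labelled FAKO, and over all genes 4165 rose and 6243 fell in control mice and 3223 rose and 8384 fell in mice labelled FAKO. That scaling moved the median log2 fold change of all genes from -0.01 to -0.14 in control mice and from -0.03 to -0.34 in mice labelled FAKO.

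**Figure D1:**
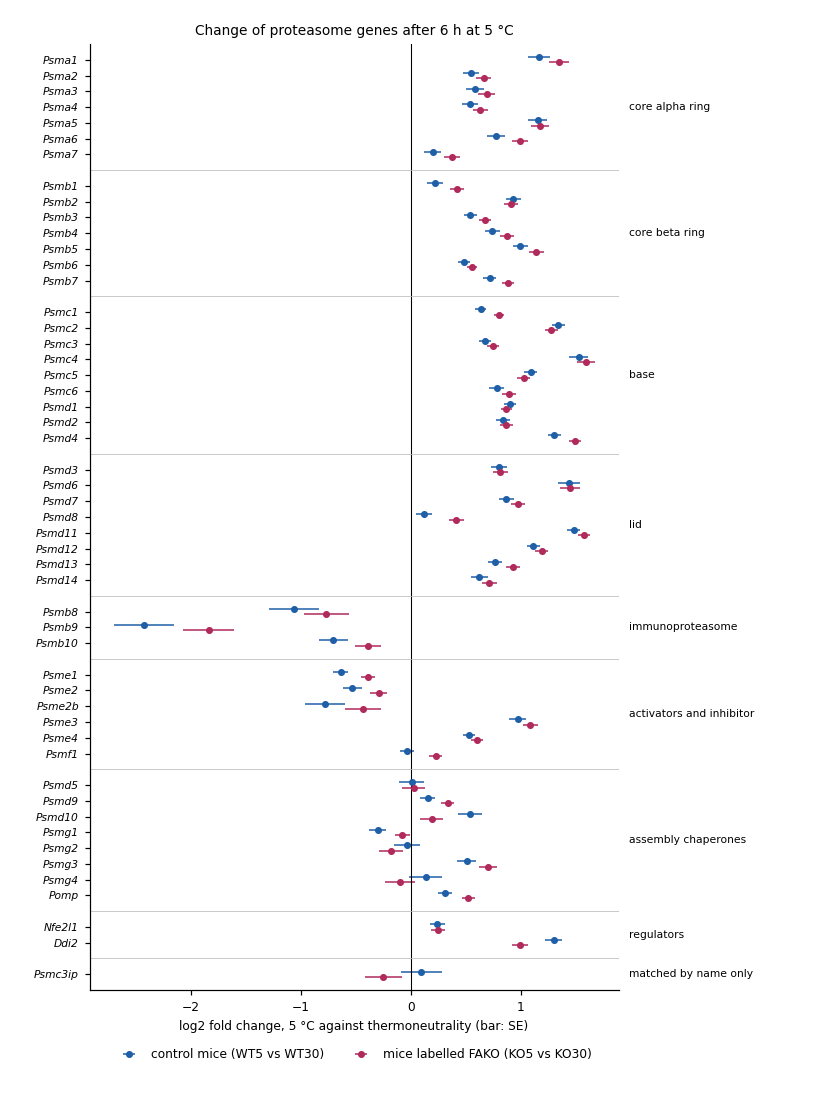
Log2 fold change of the 51 tested genes after 6 h at 5 °C (x axis, with the SE as a bar) in control mice (blue) and in mice labelled FAKO (red), ordered by role. Core, base and lid lie to the right of 0 in both, from 0.12 for Psmd8 to 1.53 for Psmc4 in control mice, and the immunoproteasome with Psme1, Psme2 and Psme2b lies to the left, while Nfe2l1 and Psmf1 in mice labelled FAKO turn to the left with library size alone as the scaling.

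Of the 31 constitutive subunits of core, base and lid, 30 rose in control mice and 31 in mice labelled FAKO. Their median log2 fold change was 0.78 in control mice, with a range from 0.12 to 1.53, and 0.89 in mice labelled FAKO, with a range from 0.38 to 1.59. In 28 of the 31, every control mouse at 5 °C was above every control mouse at thermoneutrality, and in mice labelled FAKO this held for 30. Over all genes tested, the groups did not overlap with cold higher in 23.5% in control mice and in 21.1% in mice labelled FAKO. As a sum, the 31 genes took 3028 to 3213 CPM of the non-mitochondrial counts in control mice at thermoneutrality and 4339 to 4861 in the cold. In mice labelled FAKO the sum was 2979 to 3183 at thermoneutrality and 3963 to 5074 in the cold. These sums do not depend on the TMM factors.

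The alpha ring, which forms the gate of the core, rose in 7 of 7 subunits in both genotypes. Its median log2 fold change was 0.58 in control mice and 0.69 in mice labelled FAKO. Psma1 moved the most. Its level in the control mice was 72.5, 81.9 and 87.1 CPM (lowest, median and highest) at thermoneutrality and 187, 151, 180.4, 197 and 186 CPM in the cold. The mice labelled FAKO had 69.0, 76.1 and 86.7 CPM at thermoneutrality and 164, 186 and 258 CPM in the cold. Cold and thermoneutral mice did not overlap, and the log2 fold changes were 1.17 (SE 0.10) and 1.35 (SE 0.09). Psma5 rose by nearly as much, with 1.16 in control mice and 1.18 in mice labelled FAKO.

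Psma7 moved the least in this ring. Control mice had 50.1, 54.8 and 59.6 CPM at thermoneutrality and 62.9, 57.3, 59.7, 65.0 and 70.0 CPM in the cold, so that the groups overlapped. The FAKO-labelled mice had 47.8, 51.1 and 55.3 CPM and then 54.0, 63.3 and 81.1 CPM. The log2 fold change in control mice was 0.20 (SE 0.08, Benjamini-Hochberg adjusted p = 0.03 by the edgeR quasi-likelihood test). It missed the threshold with library size alone (0.07, also in mice labelled FAKO), without a filter on low counts (0.19), with at least 10 counts required in every mouse (0.15), and without WT30-4 (0.18), WT30-5 (0.18), WT5-19 (0.19) or WT5-21 (0.16).

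The beta ring also rose in 7 of 7 subunits in both genotypes, with medians of 0.72 and 0.88. It holds the 3 catalytic subunits. The chymotrypsin-like Psmb5 had the largest change, from 24.7, 27.1 and 28.0 CPM in control mice at thermoneutrality to 54.2, 53.7, 52.3, 51.2 and 54.3 CPM in the cold. This is a mean of 26.6 ± 1.25 CPM (SD, n = 7) against 53.1 ± 1.35 CPM (SD, n = 5), a 2.00-fold rise. In the FAKO-labelled group Psmb5 went from 24.5, 25.3 and 29.3 CPM to 48.3, 54.6 and 70.4 CPM, a 2.21-fold rise.

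The trypsin-like Psmb7 rose from 61.0, 67.0 and 70.4 CPM to 115, 108, 105, 111 and 111 CPM in control mice, with a log2 fold change of 0.72 (SE 0.06). It rose from 58.3, 62.5 and 65.5 CPM to 102, 109.5 and 135 CPM in mice labelled FAKO, with 0.89 (SE 0.06). The caspase-like Psmb6 rose least of the catalytic subunits, from 73.9, 77.5 and 84.6 CPM to 115, 113, 103, 105 and 109 CPM in control mice. The mice labelled FAKO had 69.5, 74.3 and 78.3 CPM and then 96.8, 111 and 121 CPM of Psmb6. For all 3 catalytic subunits, every mouse in the cold was above every mouse of its genotype at thermoneutrality.

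At the low end, Psmb1, a non-catalytic subunit, had 63.5, 73.8 and 81.0 CPM in control mice at thermoneutrality and 89.4, 80.1, 85.3, 85.7 and 86.4 CPM in the cold. The mouse with 80.1 CPM lay inside the thermoneutral range. Values in mice labelled FAKO were 58.4, 68.6 and 78.2 CPM and then 83.2, 92.4 and 111 CPM. The log2 fold changes were 0.22 (SE 0.07) and 0.42 (SE 0.06), and with library size alone they were 0.09 and 0.11 and missed the threshold in both genotypes.

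All 9 subunits of the base rose in both genotypes, and no group overlapped in any of them. The median log2 fold changes were 0.90 in control mice and 0.90 in mice labelled FAKO. The ATPase Psmc4 had the largest rise in the cold of the 51 tested genes, from 40.8, 52.5 and 58.5 CPM in control mice at thermoneutrality to 150.5, 129, 142, 146 and 149.6 CPM in the cold. Among mice labelled FAKO it went from 43.5, 48.7 and 54.1 CPM to 126, 148 and 176 CPM. The means rose 2.89-fold and 3.01-fold. The other ATPases rose by 0.64 (Psmc1) to 1.34 (Psmc2) on the log2 scale in control mice. Psmc1, the least changed of the base, had 66.8, 73.0 and 74.9 CPM at thermoneutrality and 116, 103, 109, 116 and 115 CPM in the cold, and 63.6, 68.1 and 74.1 CPM and then 109.7, 116 and 129 CPM in mice labelled FAKO. Psmd4, a receptor for ubiquitin chains, rose by 1.31 in control mice and 1.49 in mice labelled FAKO, and the scaffold subunits Psmd1 and Psmd2 by 0.90 and 0.84 in control mice.

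In the lid, 7 of 8 subunits rose in control mice and 8 of 8 in mice labelled FAKO, with medians of 0.84 and 0.95. Psmd11, which clamps the lid to the core, rose from 34.5, 37.8 and 40.6 CPM to 102, 99.9, 119, 103 and 103 CPM in control mice. In mice labelled FAKO it rose from 32.4, 34.8 and 39.2 CPM to 94.0, 102 and 114 CPM. The means rose 2.79-fold and 2.99-fold, and Psmd11 had the smallest p-value of the 51 tested genes in each genotype (Benjamini-Hochberg adjusted p = 5.22e-17 and 3.33e-18, edgeR quasi-likelihood test). Psmd6 followed with 1.44 and 1.45 and Psmd12 with 1.12 and 1.19, while the deubiquitinase Psmd14 rose by 0.62 and 0.72.

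Psmd8 was the exception among the constitutive subunits. Per kb of exon it had 51.4 CPM in control mice at thermoneutrality, among the highest levels of the subunits. Control mice had 144, 157 and 185 CPM at thermoneutrality and 171, 157, 171, 174 and 187 CPM in the cold. That is a log2 difference of 0.12 (SE 0.08), and the Benjamini-Hochberg adjusted p of 0.17 from the edgeR quasi-likelihood test missed the threshold. Mice labelled FAKO had 127, 145 and 162 CPM at thermoneutrality and 162, 186 and 228 CPM in the cold, without an overlap, and a log2 fold change of 0.41 (SE 0.07). With library size alone this was 0.10 and missed the threshold.

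Levels of different genes were compared per kb of exon, with the length taken over all annotated exons of a gene. The exons used in this tissue may be shorter. In control mice at thermoneutrality, the median of the constitutive subunits ran from 5.92 CPM per kb for Psmd11 to 81.3 CPM per kb for Psma6. In the cold it ran from 16.1 CPM per kb for Psmd11 to 144 CPM per kb for Psma6. Psmd11, with the lowest level per kb, was also among the subunits with the largest log2 fold change. In the cold it was level with Psma3, which had 16.2 CPM per kb. This order rests on the exon length, which is 6383 bases for Psmd11 and 1234 for Psma6. In plain CPM, Psmd11 was not the lowest, with a control median of 37.8 at thermoneutrality against 17.8 for Psma5.

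The immunoproteasome genes moved the other way. All 3 fell in both genotypes, with median log2 fold changes of -1.07 in control mice and -0.77 in mice labelled FAKO. Psmb9, which takes the place of Psmb6, had 10.2, 12.2 and 16.5 CPM in control mice at thermoneutrality and 2.37, 2.16, 2.92, 2.29 and 1.90 CPM in the cold. The mean was 12.6 ± 2.24 CPM (SD, n = 7) at thermoneutrality, against 2.33 ± 0.375 CPM (SD, n = 5) after cold. The FAKO-labelled mice had 11.2, 13.0 and 15.9 CPM of Psmb9 at thermoneutrality and 1.49, 3.42 and 7.09 CPM in the cold. The log2 fold changes were -2.43 (SE 0.28) and -1.84 (SE 0.23), the largest of the 51 tested genes in either direction, and the cold and thermoneutral mice did not overlap.

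Psmb8, which takes the place of Psmb5, had 17.7, 20.2 and 28.0 CPM in control mice at thermoneutrality and 9.55, 8.08, 9.74, 12.8 and 11.4 CPM in the cold, with a log2 fold change of -1.07 (SE 0.23). Among mice labelled FAKO Psmb8 went from 16.9, 21.4 and 26.8 CPM to 6.32, 12.1 and 23.9 CPM, where the groups overlapped, with -0.77 (SE 0.20). Psmb10, which takes the place of Psmb7, went from 23.2, 24.3 and 33.3 CPM to 15.7, 15.7, 15.6, 15.9 and 17.9 CPM in control mice, a log2 difference of -0.70 (SE 0.13). Values in mice labelled FAKO were 22.2, 25.9 and 27.7 CPM and then 15.2, 17.5 and 30.7 CPM of Psmb10, again with an overlap, and a log2 fold change of -0.39 (SE 0.12). The highest cold value of Psmb8, Psmb9 and Psmb10 came from the same mouse, KO5-27, and without it the log2 fold changes in mice labelled FAKO were -0.99, -2.09 and -0.53.

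**Figure D2:**
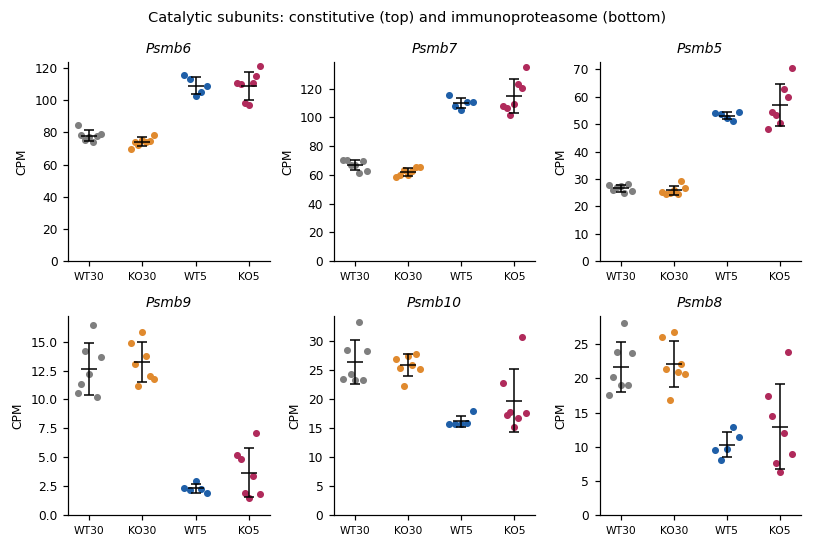
CPM of the constitutive catalytic subunits (top row) and of the immunoproteasome subunits that replace them (bottom row, same order) in every mouse, by group on the x axis; bars give the mean and SD. Psmb5, Psmb6 and Psmb7 are higher in all cold mice than in any thermoneutral mouse of the same genotype, and Psmb9 is lower, while 1 cold mouse labelled FAKO reaches 23.9 CPM of Psmb8 and 30.7 CPM of Psmb10.

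Set against the subunit it replaces in each mouse, per kb of exon, Psmb9 was at 0.0639 to 0.114 of Psmb6 in control mice at thermoneutrality and at 0.00893 to 0.0145 in the cold. Psmb8 was at 0.170 to 0.302 of Psmb5 and then at 0.0400 to 0.0667. Psmb10 was at 0.669 to 1.10 of Psmb7 and then at 0.272 to 0.323. In the FAKO-labelled group the median ratios went from 0.0897 to 0.0157 for Psmb9, from 0.227 to 0.0512 for Psmb8 and from 0.848 to 0.324 for Psmb10. The ratio is free of the scaling, and cold and thermoneutral control mice did not overlap in any of the 3 ratios. Its level depends on the annotated exon lengths, which are 3381 bases for Psmb8 and 899 for Psmb5, while its change with cold does not. In plain CPM the control medians at thermoneutrality were 20.2 for Psmb8 and 27.1 for Psmb5.

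The immunoproteasome is made at a high level in leukocytes, so their markers were read in the same mice. The 9 leukocyte markers summed to 256 to 403 CPM in control mice at thermoneutrality and to 205 to 251 CPM in the cold, and 5 of them fell and 1 rose. In mice labelled FAKO the sum was 240.3 to 324 CPM and then 175 to 356 CPM, and 2 fell and 2 rose. Over all genes 33.4% fell in control mice and 34.9% in mice labelled FAKO. The mice KO5-22, KO5-23 and KO5-27 had 319, 356 and 301 CPM of these markers, and 17.5, 14.5 and 23.9 CPM of Psmb8, while the other 4 cold mice labelled FAKO had at most 228 CPM of the markers and 12.1 CPM of Psmb8. None of the 9 markers was at 0 in any library. In bulk tissue, fewer cells of a type and less RNA per cell cannot be told apart, and the part of leukocytes in the fall of the immunoproteasome genes was not tested.

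Among the activators, Psme1 and Psme2 form the interferon-induced ring that opens the core without ATP. Psme1 fell from 51.2, 59.8 and 66.5 CPM to 38.1, 36.1, 38.9, 37.3 and 40.6 CPM in control mice, a log2 difference of -0.64 (SE 0.07). In the FAKO-labelled group it fell from 53.2, 57.0 and 60.6 CPM to 35.9, 43.0 and 48.7 CPM, with -0.39 (SE 0.06), and no group overlapped. Psme2 fell from 37.2, 40.1 and 42.2 CPM to 25.4, 24.1, 28.97, 29.8 and 28.98 CPM in control mice, with -0.53 (SE 0.09). The mice labelled FAKO had 34.2, 38.9 and 43.8 CPM and then 23.2, 30.7 and 38.4 CPM of Psme2, which overlapped, with -0.29 (SE 0.08). Psme2b, a single-exon copy of Psme2 whose reads may be shared with it, had 1.72, 2.24 and 2.86 CPM in control mice at thermoneutrality and 1.25, 1.11, 1.29, 1.35 and 1.61 CPM in the cold. Among mice labelled FAKO the values were 1.63, 2.11 and 2.90 CPM and then 1.01, 1.49 and 2.30 CPM. The log2 fold changes of Psme2b were -0.78 (SE 0.18) and -0.43 (SE 0.16), with overlap in the latter.

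The other activators rose. Psme3, which forms a ring in the nucleus, went from 35.7, 43.5 and 47.2 CPM to 84.7, 85.6, 85.5, 74.8 and 87.7 CPM in control mice, a 1.96-fold rise of the mean. Mice labelled FAKO had 36.0, 39.4 and 47.3 CPM and then 74.9, 84.6 and 98.4 CPM, a 2.13-fold rise. Psme4, a large single-chain activator, went from 162, 178 and 189 CPM to 249, 240.2, 242, 271 and 259 CPM in control mice and from 152, 167 and 182 CPM to 239, 255 and 282 CPM in mice labelled FAKO. Psme3 and Psme4 were higher in every cold mouse than in any thermoneutral mouse of the same genotype. Psmf1, an inhibitor of the core in vitro, had 16.2, 17.9 and 19.1 CPM in control mice at thermoneutrality and 18.5, 15.7, 17.6, 18.1 and 17.7 CPM in the cold, a log2 fold change of -0.03 (SE 0.06). In mice labelled FAKO it went from 15.9, 16.5 and 17.1 CPM to 16.2, 19.5 and 21.3 CPM, with 0.23 (SE 0.06), which turned to -0.10 with library size alone.

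**Figure D3:**
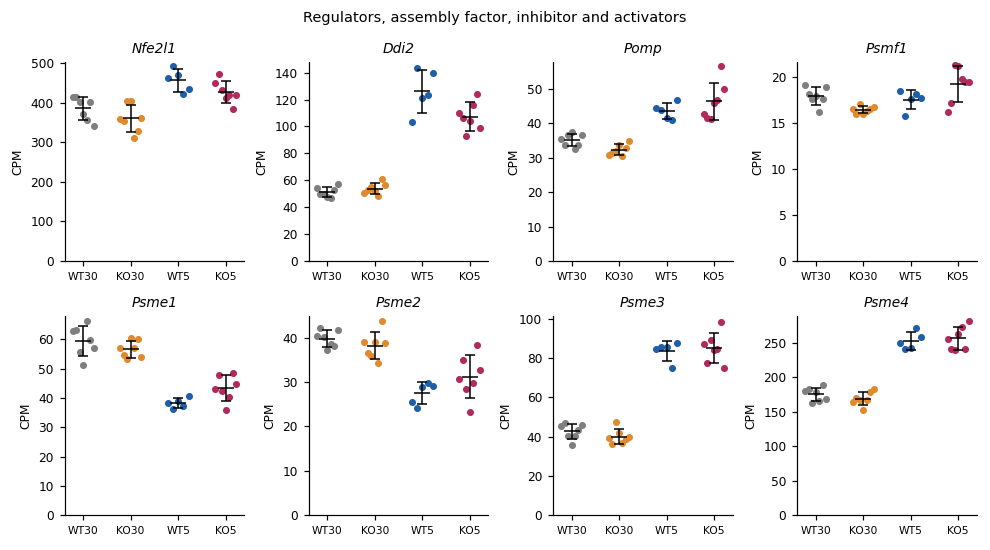
CPM of the regulators Nfe2l1 and Ddi2, the assembly factor Pomp, the inhibitor Psmf1 and the activators Psme1 to Psme4 in every mouse, by group on the x axis; bars give the mean and SD. Ddi2, Psme3 and Psme4 are higher and Psme1 is lower in all cold mice than in any thermoneutral mouse of the same genotype, and Nfe2l1 shows a smaller difference, from a mean of 386 to 456 CPM in control mice and from 359.9 to 426 CPM in mice labelled FAKO, that turns to a lower level in mice labelled FAKO with library size alone as the scaling.

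The regulator Nfe2l1 (ENSMUSG00000038615.17, minus strand of chromosome 11 from 96817414 to 96829968 on GRCm38) had 73.8 CPM per kb of exon in control mice at thermoneutrality, second to Psma6 among the 53 genes. Control mice had 342, 402 and 414 CPM at thermoneutrality and 462, 493.5, 469, 421 and 434 CPM in the cold. The FAKO-labelled mice had 312, 359 and 404 CPM and then 384, 420.3 and 471 CPM, so that they overlapped while the control mice did not. By the edgeR quasi-likelihood test, Nfe2l1 rose by 0.24 log2 units in control mice (SE 0.07, Benjamini-Hochberg adjusted p = 0.00316) and by 0.24 in mice labelled FAKO (SE 0.06, adjusted p = 0.00121). Taken by itself, Nfe2l1 gave cold differences in log2 CPM of 0.24 in control mice (exact two-sided permutation test, p = 0.00253) and 0.25 in mice labelled FAKO (exact two-sided permutation test, p = 0.0035). Leaving out WT30-7 gave 0.21 in control mice (exact two-sided permutation test, p = 0.00433). With library size alone the fitted values were 0.12 in control mice and -0.06 in mice labelled FAKO, neither past the threshold, while the exact two-sided permutation test of Nfe2l1 by itself gave 0.12 with p = 0.0354 in control mice under that scaling. Relative to the median of all genes, Nfe2l1 was above it under both scalings in both genotypes.

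Ddi2, the protease that cuts NFE2L1, rose far more than Nfe2l1. Control mice had 47.1, 49.8 and 57.3 CPM at thermoneutrality and 103, 143, 121, 123 and 139.6 CPM in the cold, a 2.46-fold rise of the mean. Among mice labelled FAKO it went from 48.5, 52.9 and 61.2 CPM to 92.7, 106 and 124 CPM, a 1.99-fold rise. The lowest cold mouse of each genotype was above the highest thermoneutral mouse. Ddi2 shares 18.3% of its exon bases with Rsc1a1 on the same strand, so the assignment of reads there is uncertain.

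Of the 8 assembly chaperones, 3 rose and 1 fell in control mice, where 31.6% of all genes rose and 33.4% fell. In mice labelled FAKO 3 rose and 0 fell in edgeR's test, also at an unadjusted p below 0.05, against 33.7% and 34.9% of all genes. These rises are near the share over all genes. Pomp, which is needed to build the core and is degraded once the core is complete, went from 32.5, 35.4 and 37.5 CPM to 44.5, 43.9, 41.6, 41.0 and 46.6 CPM in control mice, a log2 difference of 0.31 (SE 0.07). Values in mice labelled FAKO were 30.3, 31.8 and 34.7 CPM and then 41.2, 45.8 and 56.5 CPM of Pomp, with 0.52 (SE 0.06). With library size alone the log2 fold changes of Pomp were 0.18 and 0.21 and missed the threshold. Psmg3, an alpha ring assembly factor, rose by 0.51 (SE 0.09) in control mice and 0.70 (SE 0.08) in mice labelled FAKO.

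Psmd10, a chaperone of the base also known as gankyrin, had 7.43, 8.35 and 10.2 CPM in control mice at thermoneutrality and 11.6, 13.2, 11.8, 12.9 and 12.6 CPM in the cold. Mice labelled FAKO had 8.26, 8.69 and 9.30 CPM and then 6.66, 10.4 and 12.2 CPM. The log2 fold change was 0.54 (SE 0.11) in control mice and 0.19 (SE 0.10) in mice labelled FAKO, where the groups overlapped and the Benjamini-Hochberg adjusted p of the edgeR quasi-likelihood test was 0.106. Psmg1, an alpha ring chaperone, had 12.7, 14.8 and 16.9 CPM in control mice at thermoneutrality and 12.2, 12.6, 11.6, 12.7 and 10.8 CPM in the cold, a log2 fold change of -0.30 (SE 0.08). In the FAKO-labelled group it had 12.4, 14.1 and 14.8 CPM and then 12.0, 12.6 and 15.2 CPM. Psmd9, which shares 25.5% of its exon bases with a gene on the other strand, rose by 0.34 (SE 0.06) in mice labelled FAKO, but had 0.01 with library size alone. Psmd5, Psmg2 and Psmg4 did not pass the threshold in either genotype, with log2 fold changes between -0.18 and 0.14.

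Outside these roles, Psmc3ip had 0.907, 1.19 and 1.55 CPM in control mice at thermoneutrality and 1.07, 1.25, 1.16, 1.35 and 1.56 CPM in the cold. It had 1.15, 1.36 and 1.92 CPM and then 0.731, 1.25 and 1.61 CPM in mice labelled FAKO. Neither change passed the threshold. Psma8, known from testis, had at most 6 counts in any library, and Psmb11, known from thymus, at most 2, so neither was tested.

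Of the 51 tested genes, 6 had control groups that did not overlap with cold lower, and 2 had such groups in mice labelled FAKO. Over all genes tested, this held for 22.9% and 19.3%, a larger share in both genotypes.

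Other genes of the pathway were read in the same fit, and the counts of each list stand against the share of all genes, 31.6% higher and 33.4% lower in control mice and 33.7% and 34.9% in mice labelled FAKO. Of 5 genes for ubiquitin and its activating enzymes, 4 rose and 0 fell in each genotype. Ubb, which encodes ubiquitin, had the largest rise, 1.05 (SE 0.12) in the control group and 1.21 (SE 0.11) in mice labelled FAKO. Uba6, an alternative activating enzyme, had 0.10 (SE 0.09) and -0.03 (SE 0.09) and did not pass. Of 10 cofactors of the segregase p97, 8 rose and 0 fell in each genotype. Plaa had the largest rise, 1.41 (SE 0.06) in control mice and 1.40 (SE 0.06) in mice labelled FAKO, and Ubxn6 the lowest value in control mice, -0.10 (SE 0.09).

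Another list held 16 genes, outside the symbol rule, for proteins that bind the proteasome or belong to its cap. Of them, 10 rose and 3 fell in control mice, where 31.6% of all genes rose and 33.4% fell. In mice labelled FAKO 12 rose and 3 fell, against 33.7% and 34.9% of all genes. Adrm1, a ubiquitin receptor of the cap, rose by 0.85 (SE 0.10) and 0.84 (SE 0.09). The arsenite-inducible Zfand2a had the largest rise, 1.16 (SE 0.10) and 1.19 (SE 0.10). Uchl5, the deubiquitinase that Adrm1 recruits, had the largest fall of the list in control mice, -1.02 (SE 0.11), and -0.70 (SE 0.10) in mice labelled FAKO. Thus the receptor and its deubiquitinase moved in opposite directions.

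Among 13 genes that handle NFE2L1, its relatives and partners, 8 rose and 2 fell in control mice, and 8 rose and 4 fell in mice labelled FAKO, where 33.7% of all genes rose and 34.9% fell. Maff, a small MAF partner, went from a median of 8.57 to 39.2 CPM in control mice, a log2 difference of 2.32 (SE 0.22), and had 3.11 (SE 0.22) in mice labelled FAKO. Btrc, part of a ubiquitin ligase that targets NFE2L1, dropped by 1.22 on the log2 scale in the control group and by 1.21 in the labelled FAKO group. Nfe2l2, the related regulator of the oxidative stress response, had 0.22 (SE 0.13) and 0.01 (SE 0.12) and did not pass in either genotype. Nfe2l3 had -0.33 (SE 0.21) in control mice, which did not pass, and -0.58 (SE 0.19) in mice labelled FAKO, which did.

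Of 21 genes of the interferon response and antigen processing, 1 rose and 9 fell in control mice, and 2 rose and 8 fell in mice labelled FAKO. The share that fell is near the 33.4% and 34.9% of all genes. Tap1 went from 17.4, 20.1 and 30.7 CPM to a median of 6.41 CPM in control mice, with a range in the cold of 6.18 to 9.51 CPM, and Tap2 from 33.5, 35.3 and 41.0 CPM to a median of 12.9 CPM, with a range of 11.5 to 14.3 CPM. Their log2 fold changes were -1.65 (SE 0.29) and -1.52 (SE 0.12) in control mice and -1.13 (SE 0.25) and -1.32 (SE 0.11) in mice labelled FAKO. Tap1, Psmb8, Psmb9 and Tap2 lie side by side on chromosome 17, and all 4 fell in both genotypes. In the GENCODE annotation Tap1 overlaps 5.79% of the exon bases of Psmb9 on the other strand, and Gm20496 overlaps 14.7% of those of Psmb8. The strand setting of the counting is not given, so a part of these reads may be shared. Oas1a, an antiviral synthetase, was the gene of the list that rose in control mice, by 0.91 (SE 0.22).

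A further comparison asked whether the mice labelled FAKO differed from control mice. At thermoneutrality 0 of the 51 genes passed in edgeR's quasi-likelihood test or in DESeq2's Wald test, against 0.0579% of all genes higher and 0.0231% lower in edgeR. At an unadjusted p below 0.05, 0 were higher and 3 were lower, against 3.84% and 3.81% of all genes. Of the 31 constitutive subunits, 30 had a log2 fold change below 0 with TMM and 1 with library size alone. The median of the 31 was -0.07 and 0.07, while that of all genes moved from -0.02 to 0.13, and 29 and 30 of the 31 were below that median under the respective scaling.

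The 3 genes with the smallest unadjusted p at thermoneutrality were Psmd7, Psmb3 and Psmf1. Psmd7 of the lid had 29.1, 34.6 and 37.5 CPM in control mice and 28.9, 29.5 and 31.4 CPM in mice labelled FAKO, a log2 difference of -0.19 (SE 0.06, Benjamini-Hochberg adjusted p = 0.416, edgeR quasi-likelihood test). Psmb3 of the beta ring had 36.7, 40.6 and 42.9 CPM against 35.5, 36.6 and 39.6 CPM, with -0.12 (SE 0.05). The values of Psmf1 given above correspond to -0.13 (SE 0.06). The ranges of the genotypes overlapped for all 3.

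In the cold, again 0 of the 51 genes passed in either test, against 0.0463% of all genes higher and 0.0926% lower in edgeR. At an unadjusted p below 0.05, 5 were higher and 2 were lower, against 7.47% and 5.96% of all genes. The 5 higher genes were Psme1, Psmb9, Psmb10, Psmf1 and Psme2, and the 2 lower genes were Psmd10 and Ddi2. Psmd10 had the smallest p, with the 5 control mice between 11.6 and 13.2 CPM and the mice labelled FAKO between 6.66 and 12.2 CPM. Its log2 difference was -0.33 (SE 0.11, Benjamini-Hochberg adjusted p = 0.192, edgeR quasi-likelihood test). For Ddi2 it was -0.23 (SE 0.08, adjusted p = 0.196), and for Psme1 0.18 (SE 0.07, adjusted p = 0.254 in the same edgeR test). Psmb9 had the largest difference, 0.65 (SE 0.28). The median log2 difference of the 3 immunoproteasome genes was 0.33, and 0.15 without KO5-27. The constitutive subunits lay between -0.09 and 0.15.

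Other measures also differed between the cold groups. The nuclear-retained RNAs Malat1, Neat1, Meg3 and Kcnq1ot1 summed to 14840 to 16273 CPM in control mice and to 10340 to 13577 CPM in mice labelled FAKO, without an overlap. The red blood cell markers summed to 393 to 652 CPM and 489 to 1428 CPM. Leukocyte markers had a log2 difference above 0 in 9 of 9, with a median of 0.38, and genes of the interferon response and antigen processing in 16 of 21, with a median of 0.19, against 0.02 for all genes. In edgeR, 0 genes of these last 2 lists passed the adjusted threshold. At an unadjusted p below 0.05, 2 leukocyte markers and 1 interferon gene were higher. Of the 4 nuclear-retained RNAs, 1 passed the adjusted threshold as lower, and 4 were lower at the unadjusted threshold. Of the 4 red blood cell markers, 0 passed the adjusted threshold, and 4 were higher at the unadjusted threshold. Over all genes, 7.47% were higher and 5.96% lower at the unadjusted threshold. The part of these measures in the differences of the proteasome genes was not tested.

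**Figure D4:**
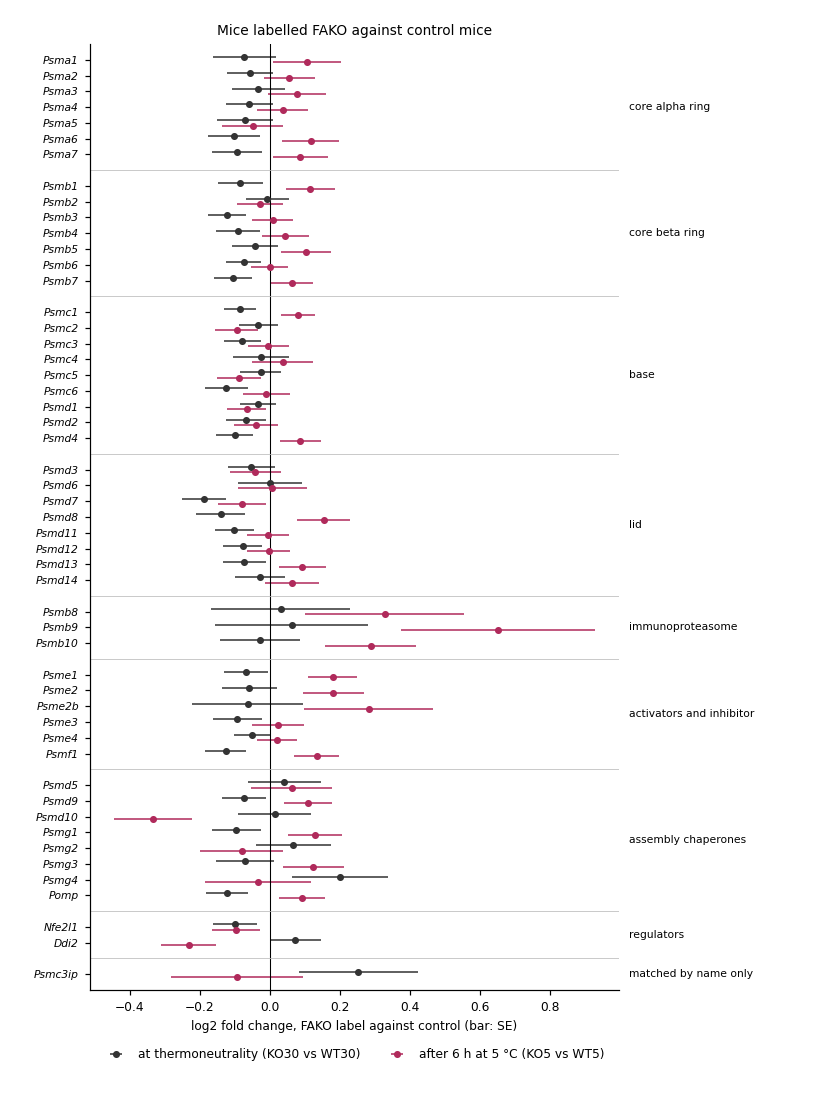
Log2 fold change of mice labelled FAKO against control mice (x axis, with the SE as a bar) for the 51 tested genes at thermoneutrality (black) and after 6 h at 5 °C (red), ordered by role. Black points of core, base and lid lie between -0.19 and 0.00 with TMM and above 0 for 30 of the 31 with library size alone, red points of the immunoproteasome lie at 0.29 to 0.65, with a median of 0.33 that is 0.15 without KO5-27, and no gene passed the adjusted threshold.

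The difference between the cold responses of the genotypes was tested as an interaction. It passed in 0 of the 51 genes with edgeR and 0 with DESeq2, against 0.289% of all genes above 0 and 0.868% below 0 in edgeR. At an unadjusted p below 0.05, 9 genes were above 0 and 2 below 0, against 9.12% and 7.1% of all genes. Of the 31 constitutive subunits, 4 lay below 0 with TMM and 27 with library size alone, and 8 were below the median of all genes under each scaling. The smallest p-values belonged to Psmf1, Ddi2 and Psmd8. The cold response of Psmf1 was larger by 0.26 (SE 0.09) in mice labelled FAKO, that of Psmd8 was larger by 0.29 (SE 0.10), and that of Ddi2 was smaller by 0.30 (SE 0.11), with Benjamini-Hochberg adjusted p-values of 0.129, 0.151 and 0.15 from the edgeR quasi-likelihood test. For Nfe2l1 the difference was 0.00 (SE 0.09).

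Tested alone, Nfe2l1 was lower in mice labelled FAKO by 0.10 log2 CPM at thermoneutrality (exact two-sided permutation test, p = 0.162) and by 0.10 in the cold (exact two-sided permutation test, p = 0.104). With library size alone the difference was 0.05 at thermoneutrality and -0.15 in the cold (exact two-sided permutation test, p = 0.353 and 0.167). In the cold, the difference was -0.12 without WT5-19 (exact two-sided permutation test, p = 0.0485) and -0.12 without KO5-23 (exact two-sided permutation test, p = 0.0346). These were the only 2 of the 12 runs with a mouse left out that had a p below 0.05.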

How the data were processed

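The counts of 26 BAT libraries were used, in the 4 groups given by the labels. Per the study's methods and the submitters' processing notes, the authors aligned stranded, rRNA-depleted reads to mm10 with STAR 2.5.2b, and featureCounts 1.5.2 assigned the reads to genes. The deposited values are counts per gene without normalization. The strand setting of the counting is not given in the sources used here. Of the 53 members, 12 share exon bases with a gene on the other strand, and Psmd9 and Psmc3ip do so over more than 20% of them. On the same strand, 5 members share exon bases with another gene, the most in Ddi2 at 18.3% with Rsc1a1. Entries were named with GENCODE M21, which held 50462 of the 50686, and 37 members had an identical versioned identifier. The members and lists were chosen with earlier results of these data known, so no p-value was adjusted over a list alone.

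The filterByExpr function, given the 4 groups, kept 17286 genes. A model with 1 term per group was fitted to all 26 mice in R 4.3.3 with edgeR 4.0.16 (quasi-likelihood test in its legacy mode, TMM factors, Benjamini-Hochberg adjustment over all genes tested, threshold 0.05). DESeq2 1.42.0 and other scalings, filters and fits were alternatives. Nfe2l1 alone was compared with exact two-sided permutation tests of log2 CPM with a prior count of 2. Every member may be named. Values by mouse are given for Nfe2l1, Ddi2, Pomp, the catalytic subunits, Psme1 to Psme4, the largest and smallest cold response of each class in control mice, and the 3 smallest p-values of each genotype comparison; of the other lists, the largest rise and the largest fall in control mice are given, with Nfe2l2, Nfe2l3, Ubb, Adrm1, Tap1 and Tap2. Total counts per library set the precision of low genes such as Psme2b. Each sample is 1 mouse, and all 73 pairs within groups differed by more than sampling noise (lowest chi-square per gene 5.17). Only the edgeR fit was tried on simulated counts, which held changes between genotypes but none with cold. The other steps were not tried in this way. Paaf1 was not analysed here, and 1 gene of the ubiquitin list is not reported here.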

Additional observations from a re-analysis of the deposited data

Results flagged for a closer look

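Within the groups, the highest or lowest mouse stood apart by Dixon's criterion in 10 of 204 sets of CPM values (51 genes in 4 groups), and chance alone gives about 1 set in 20. In the cold mice labelled FAKO, KO5-28 was highest for Psma4 with 115.5 CPM (next 96.2 CPM) and for Psmb1 with 110.7 CPM (next 94.8 CPM), and KO5-23 was lowest for Psmd9 with 11.61 CPM. Among the thermoneutral mice labelled FAKO, KO30-13 was highest for Psma6 with 111.4 CPM and for Psmb5 with 29.29 CPM, and KO30-14 for Psmg4 with 5.793 CPM. The thermoneutral control mouse WT30-3 was lowest for Psma4 with 56.04 CPM. Of the cold control mice, WT5-21 was highest for Psmb10 with 17.86 CPM, WT5-18 was highest for Psmd11 with 119.2 CPM, and WT5-19 was lowest for Psme3 with 74.83 CPM. KO5-28 and KO30-13 were the mice that stood apart for more than 1 gene. None of the log2 fold changes of these genes that passed the threshold lost it when the respective mouse was left out.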

How the results depend on the processing

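The alternatives were DESeq2, scaling by library size alone or by RLE factors, a filter of at least 10 counts per mouse or none, the revised quasi-likelihood method, a fit to the groups compared, a prior count of 0.5, and leaving out each mouse. Of 623 values of members past the threshold under settings other than leaving out a mouse, 610 stayed past it, 11 did not and 2 reversed; of 1158 with a mouse left out, 1154 stayed past it and the other 4 belong to Psma7. With library size alone, 10 members fell in mice labelled FAKO in place of 6, and the cold changes there of Psmf1 (-0.10) and Nfe2l1 (-0.063) reversed. Tested alone with library size, Nfe2l1 had -0.075 for cold in mice labelled FAKO (exact permutation test, p = 0.39) and 0.049 for the genotype difference at thermoneutrality (exact permutation test, p = 0.353). With a mouse left out, the Nfe2l1 genotype difference in the cold ran from -0.125 to -0.067. Moves of class medians were set against the SD of the class mean log2 CPM over the WT30 mice alone, for every comparison. Class medians moved by more than this SD in 33 of 1008 cases, 30 of them with library size alone. Without KO5-27 the immunoproteasome median for cold in mice labelled FAKO was -0.99. The labels give no litter or other pairing of the mice, so no paired analysis was run. Depth limits Psme2b and Psmc3ip, with as few as 16 and 11 counts in a library.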
